A study of Homo sapiens with 10 samples.

Results

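The genes described here are 31 targets of p53, given as a list of symbols, with no threshold on the values of these arrays. Of them 28 were measured by at least 1 probe set naming that gene alone, out of 19775 genes measured in that way. BTG2 and FDXR had no probe set named for them, and the probe set of BBC3 is shared with other genes, so these 3 members have no value here. Tests took in genes that reached more than 6.18 log2, the median of all deposited values, on at least 1 of the arrays compared, and 27 members did. The member that did not was SPATA18, a mitochondrial quality control gene, which reached 6.02 log2 on its brightest array.

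The study profiled RNA from 10 cultures on Affymetrix arrays, with a single array a culture. HCT116, from a colorectal carcinoma, has wild-type p53, and Hke3 was derived from it by disruption of its mutant RAS allele, so the 2 lines share an origin. Each line was grown by itself, with vitamin D3 for 24 hours, with THP1 macrophages that shared the medium but did not touch the tumour cells, and with THP1 and vitamin D3 together. THP1, a monocytic leukaemia line that lacks functional p53, was profiled without tumour cells, with no addition and with vitamin D3. For the array of Hke3 with vitamin D3, 1 label field says untreated against 3 that give the treatment, and it was kept as treated. No condition was repeated, so the error of each difference comes from how it varies across the other factors of the design, and the p-values measure only that spread.

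p53 is a transcription factor that is held low by constant degradation and accumulates after DNA damage and other stresses. It then binds paired copies of a short half-site near its targets and raises genes that stop the cell cycle, repair DNA, adjust metabolism or start cell death, together with genes such as MDM2 that shut the response off again. Several of its targets, among them CDKN1A, GADD45A, GDF15 and PMAIP1, also respond to other stress pathways, including the one run by ATF4 when amino acids run short or proteins misfold. The level of p53 is set mainly by protein stability, which an array does not measure, and the p53 gene itself was not analysed here.

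Promoter sequence from RefSeq (GRCh38.p14), reaching from 250 bases before a transcription start to 50 bases after it, was found for 25 of the 31 members, in 36 windows. The windows below are shown because their genes lead the comparisons that follow or carry the closest matches to a p53 site. CDKN1A (chr6:36678464-36678713, plus strand, the 250 bases before the start) has the motif GGGCGG in capitals, with 4 copies on the printed strand, of which a pair overlaps. AEN (chr15:88621090-88621339, plus strand, the 250 bases before the start) has in capitals 2 adjoining half-sites with at most 2 mismatches. Both of these keep the core CWWG, where W is A or T. PLK2 (chr5:58460087-58460336, minus strand, the 250 bases before the start) has 1 exact half-site in capitals. DDB2 (chr11:47214974-47215003, plus strand, positions 1 to 30 after the start) has 2 exact half-sites in capitals with the spacer between them. SESN1 (chr6:109009019-109009048, minus strand, positions -60 to -31) has 1 exact half-site in capitals.
CDKN1A: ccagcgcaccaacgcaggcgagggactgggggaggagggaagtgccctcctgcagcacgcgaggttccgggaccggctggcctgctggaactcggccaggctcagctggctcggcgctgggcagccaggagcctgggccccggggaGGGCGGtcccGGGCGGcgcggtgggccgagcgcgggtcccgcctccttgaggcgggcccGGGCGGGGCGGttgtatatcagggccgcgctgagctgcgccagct
AEN: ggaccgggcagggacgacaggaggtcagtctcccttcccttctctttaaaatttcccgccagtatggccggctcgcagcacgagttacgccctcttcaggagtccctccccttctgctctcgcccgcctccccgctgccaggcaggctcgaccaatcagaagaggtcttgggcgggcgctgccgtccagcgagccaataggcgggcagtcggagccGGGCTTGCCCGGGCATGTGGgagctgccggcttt
PLK2: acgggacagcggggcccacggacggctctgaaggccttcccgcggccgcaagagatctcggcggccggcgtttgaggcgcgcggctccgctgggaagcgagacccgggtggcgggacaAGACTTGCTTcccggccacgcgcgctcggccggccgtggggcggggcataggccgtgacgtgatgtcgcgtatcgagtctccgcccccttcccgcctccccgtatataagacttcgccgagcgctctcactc
DDB2: ggtttGAACAAGCCCTGGGCATGTTTggcg
SESN1: cattgtcgtctGGACAAGTCTccacaagtc

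An exact p53 half-site, searched on both strands, lay in 5 of the 36 member windows (13.9%), those of AEN, DDB2, FDXR, PLK2 and SESN1, and in 6.64% of all 34941 promoter windows. A pair of exact half-sites at most 13 bases apart lay in 0.0286% of all windows, among them that of DDB2. Adjoining half-sites with at most 2 mismatches and both CWWG cores kept lay in 0.157% of all windows, among them that of AEN. The motif GGGCGG lay in 44.9% of all windows and in 30 of the 36 member windows, which belong to 23 of the 25 genes. TGATGNAA, a motif bound by ATF4 with its partners, lay in 3.62% of all windows and in the window of PLK3 alone among the members. These are matches of letters in a short window, and the well-known p53 sites of CDKN1A lie outside it.

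Across both colon cancer lines together, 3 p53 targets passed the test with THP1 coculture. TP53INP1, which promotes cell death and autophagy downstream of p53, rose by 0.30 ± 0.07 log2 (SE; limma adjusted p = 0.046). PLK3, a stress-response kinase, rose by 0.23 ± 0.06 (SE; limma adjusted p = 0.0485). AEN, a nuclease that cuts DNA in dying cells, fell by 0.24 ± 0.05 (SE; limma adjusted p = 0.0329). The other 24 members tested did not pass an adjusted p of 0.05. The share of members called, 3 of 27, stands beside 7.82% of all 13243 genes tested, with 3.76% called higher and 4.05% lower.

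TP53INP1 measured 8.38 log2 in HCT116 by itself, 8.49 with vitamin D3, 8.88 with THP1 and 8.88 with both. In Hke3 it measured 9.12, 9.11, 9.30 and 9.25 log2 in the same order. Coculture gave the higher value in all 4 pairs of arrays, and the Hke3 arrays lay above the HCT116 arrays. Another TP53INP1 probe set above the filter differed by 0.06 log2 with coculture in HCT116 and by -0.14 in Hke3. The second PLK3 probe set, with a mean of 7.77 log2 against 7.96, differed by 0.01 in HCT116 and by 0.17 in Hke3. AEN measured 9.29, 9.27, 9.13 and 9.02 log2 in HCT116 and 9.41, 9.36, 9.10 and 9.11 in Hke3, in the order alone, vitamin D3, coculture and both. Coculture gave the lower AEN value in all 4 pairs. The calls of TP53INP1, PLK3 and AEN were each lost whichever of the 8 arrays was left out, with adjusted p between 0.053 and 0.141, and the call of AEN was lost when the arrays were normalised again by cyclic loess. Over all genes, 498 were called higher and 537 lower with coculture, against 713 and 365 after cyclic loess.

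**Figure D1:**
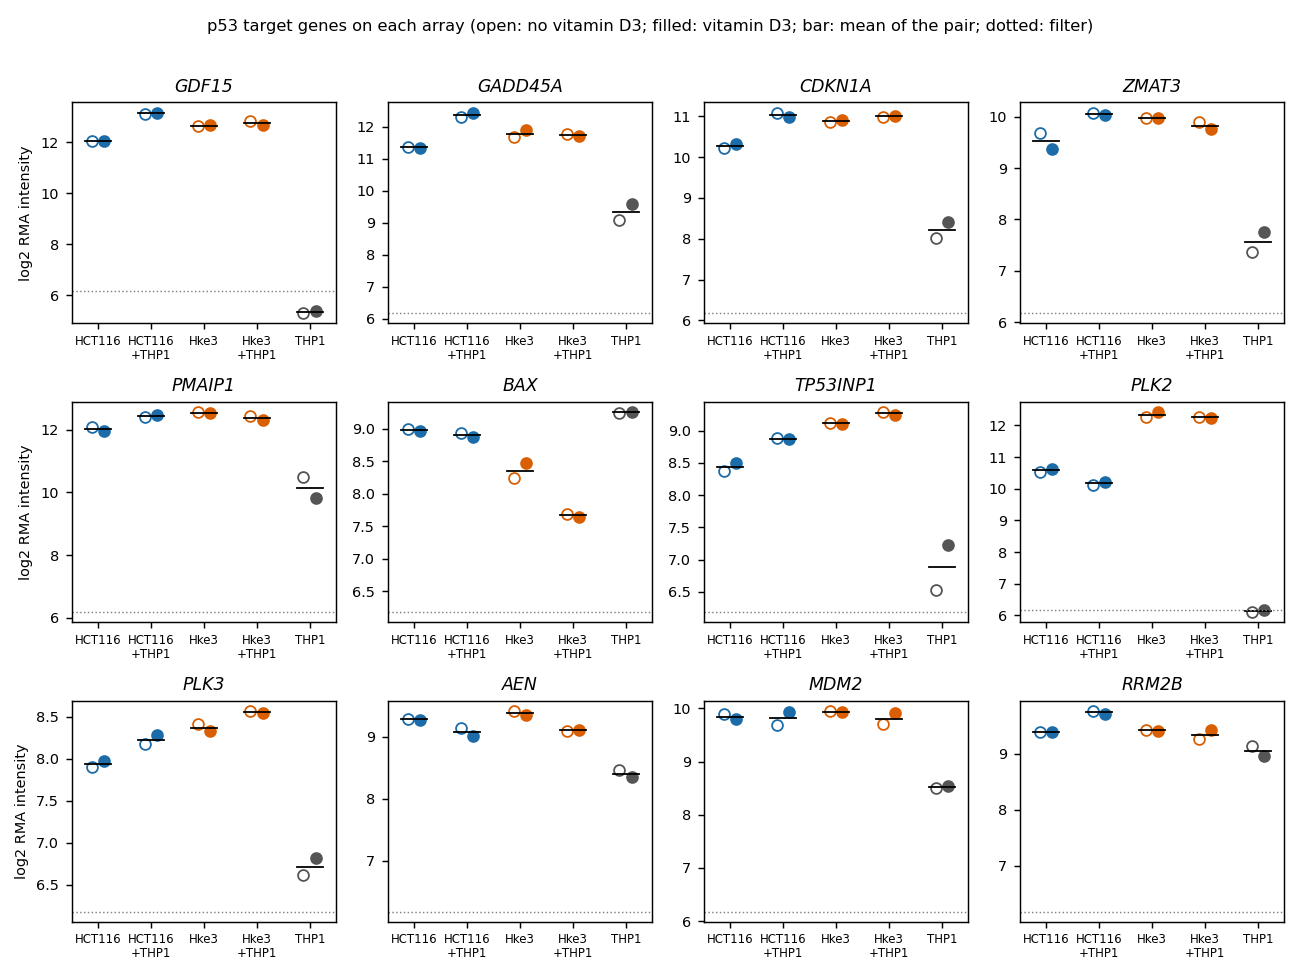
Level of 12 p53 targets on each array in log2 RMA intensity, with 1 panel a gene, 1 column a cell and coculture condition, open points without and filled points with vitamin D3, a bar at the mean of each pair and a dotted line at the filter of 6.18. GDF15, GADD45A and CDKN1A lie higher with THP1 in HCT116 and near the same level in all Hke3 arrays, BAX is lowest in cocultured Hke3, and GDF15 lies below the dotted line in THP1.

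Within HCT116, coculture raised 9 p53 targets and lowered 1. The 9 were GDF15, GADD45A, CDKN1A, ZMAT3, TP53INP1, PMAIP1, RRM2B, PLK3 and CCNG1, and the member that fell was PLK2. They make 33.3% of the 27 members higher and 3.7% lower, where 7.66% of all genes tested were called higher and 8.31% lower (16% in either direction). The median difference was 0.15 log2 over the members and -0.0213 over all genes. After cyclic loess the members again split into 9 higher and 1 lower, while the split of all genes went from 1015 higher and 1101 lower to 1329 and 790.

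Among the genes that stop the cell cycle, CDKN1A, which encodes the cyclin-dependent kinase inhibitor p21, measured 10.23 log2 in HCT116 by itself and 10.31 with vitamin D3. With THP1 it measured 11.09, and with both 10.97. Both cocultured HCT116 arrays lay above both others, and the difference was 0.76 ± 0.07 log2 (SE; 1.69-fold; limma adjusted p = 0.00218). In Hke3 CDKN1A measured 10.87 by itself, 10.91 with vitamin D3, 10.98 with THP1 and 11.02 with both, a coculture difference of 0.11. GADD45A, which slows the cell cycle and aids DNA repair, measured 11.36 and 11.34 log2 in HCT116 without coculture and 12.31 and 12.44 with it. The difference was 1.03 ± 0.08 (SE; 2.04-fold; limma adjusted p = 0.00163). In Hke3 GADD45A measured 11.67 and 11.89 without and 11.77 and 11.71 with coculture, so its Hke3 groups overlapped.

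PLK2, a kinase that acts at centrosomes and after stress, fell by 0.41 ± 0.07 log2 in HCT116 (SE; limma adjusted p = 0.0138), from 10.54 and 10.63 to 10.12 and 10.22. The remaining arrest genes rose less: PLK3 by 0.28 log2 (limma adjusted p = 0.0394) and CCNG1, a cyclin that works with phosphatases on MDM2, by 0.25 (limma adjusted p = 0.0348). The second PLK3 probe set did not show this rise, at 0.01. The calls of PLK2, PLK3 and CCNG1 rest on few arrays: leaving out 1 of the 8 arrays ended them in 4, 6 and 8 of the 8 fits. None of the 5 arrest genes tested was called in Hke3, and the difference between the lines, tested itself, was past the threshold for CDKN1A and GADD45A and not for PLK2, PLK3 and CCNG1 (limma adjusted p = 0.126, 0.638 and 0.248).

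GDF15, a secreted stress cytokine of the TGF-beta family, had the largest coculture difference of the members in HCT116. It measured 12.05 and 12.03 log2 without coculture and 13.09 and 13.17 with it, a rise of 1.09 ± 0.07 (SE; 2.12-fold; limma adjusted p = 0.00127). In Hke3 it measured 12.63 and 12.68 without and 12.82 and 12.68 with coculture, and both groups held a value of 12.68. A single GDF15 probe set passed the filter, and its name ends in _x_at, which marks probes that may also bind other transcripts. The other 2 GDF15 probe sets, both dim, differed by 0.15 and 0.03 log2 with coculture in HCT116.

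Of the 10 genes of the cell death group tested, 3 rose in HCT116 with coculture. ZMAT3, an RNA-binding protein that restrains growth, measured 9.68 and 9.37 log2 without coculture and 10.08 and 10.02 with it, a rise of 0.52 ± 0.09 (SE; limma adjusted p = 0.0106). Its 4 other probe sets differed by 0.34 to 0.72 log2 in HCT116 and by -0.25 to -0.10 in Hke3. PMAIP1, which encodes the BH3-only death protein NOXA, measured 12.10 and 11.97 without coculture and 12.42 and 12.47 with it, a rise of 0.41 ± 0.07 (SE; limma adjusted p = 0.0136). In Hke3 it measured 12.58 and 12.52 without and 12.44 and 12.30 with coculture. Its second probe set differed by 0.31 in HCT116. TP53INP1 rose by 0.44 ± 0.07 (SE; limma adjusted p = 0.00967).

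BAX, the pore-forming protein of mitochondrial cell death, did not follow these genes. In HCT116 it measured 8.999 and 8.967 log2 without coculture and 8.94 and 8.87 with it. In Hke3 it measured 8.24 and 8.48 without coculture and 7.70 and 7.65 with it. BAX fell with coculture in Hke3 by 0.69 ± 0.09 log2 (SE; 1.61-fold; limma adjusted p = 0.0071), and its second probe set differed by -0.87 there. AEN also fell in Hke3, by 0.28 ± 0.07 (SE; limma adjusted p = 0.0465). These 2 were the members called in Hke3, against 4.09% of all genes called higher and 3.06% lower (7.14% in all). The call of AEN was lost without any 1 of the 8 arrays and after cyclic loess, and that of BAX without either Hke3 array treated with vitamin D3 (adjusted p up to 0.0586). After cyclic loess the split of all genes in Hke3 went from 541 higher and 405 lower to 735 and 351.

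Among repair genes, RRM2B, the p53-induced ribonucleotide reductase subunit, rose by 0.35 ± 0.07 log2 in HCT116 (SE; limma adjusted p = 0.0205). The other 4 repair genes tested, XPC, DDB2, POLH and ASCC3, were called in neither line with coculture. The genes of metabolism, TIGAR and SESN1, differed by -0.12 and -0.09 log2 in HCT116 and were not called. The feedback genes MDM2 and PPM1D, which lower p53 activity, differed by -0.03 and 0.11 in HCT116 and were not called either. Without any 1 of the 4 HCT116 arrays, the count of members called in HCT116 fell to 3 or 4, and GDF15, GADD45A and CDKN1A kept their calls without any 1 of the 8 arrays.

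**Figure D2:**
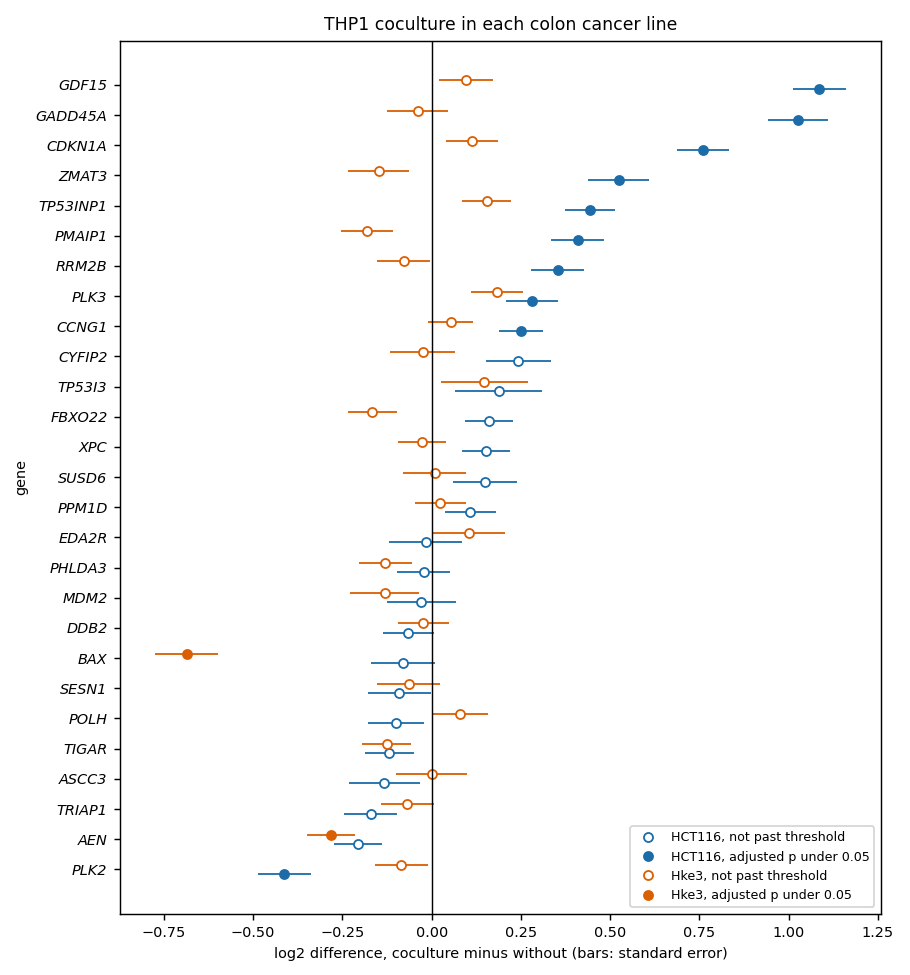
Coculture difference of the 27 tested members in log2 (coculture minus without), in HCT116 (blue) and Hke3 (orange), with bars for the standard error and filled points for an adjusted p under 0.05. GDF15, GADD45A and CDKN1A stand at 1.09, 1.03 and 0.76 in HCT116 and at 0.10, -0.04 and 0.11 in Hke3, and BAX at -0.69 in Hke3.

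The difference between the lines was tested itself, as the interaction of coculture with cell line. It was past the threshold for 6 members, all with the higher coculture difference in HCT116 (22.2% of the members, beside 2.34% of all genes in that direction, 1.87% in the other and 4.21% in either). The value is Hke3 minus HCT116: GADD45A had -1.07 ± 0.12 log2 (SE; limma adjusted p = 0.00652) and GDF15 -0.99 ± 0.11 (SE; limma adjusted p = 0.00582). ZMAT3 had -0.67 (limma adjusted p = 0.0274), CDKN1A -0.65 (0.0196), BAX -0.61 (0.0434) and PMAIP1 -0.59 (0.0262). RRM2B, at -0.43, missed the threshold with an adjusted p of 0.0637. For BAX the interaction reflects a fall in Hke3, and for the other 5 mainly a rise in HCT116. ZMAT3 and PMAIP1 also differed by -0.15 and -0.18 with coculture in Hke3, where neither was called. GADD45A and GDF15 passed without any 1 of the 8 arrays, while CDKN1A, ZMAT3 and BAX missed the threshold in 7 of the 8 fits that left out an array and PMAIP1 in all 8.

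By the probe sets used, these 5 genes were lower in HCT116 than in Hke3 without coculture, and with it the order closed or turned. CDKN1A was higher in Hke3 by 0.64 log2 without THP1 or vitamin D3 and by 0.59 with vitamin D3, against -0.11 with THP1 and 0.05 with both. GDF15 was higher in Hke3 by 0.58 and 0.65 without coculture and lower by 0.27 and 0.49 with it. GADD45A went the same way, from 0.31 and 0.55 higher in Hke3 to 0.54 and 0.73 lower. PMAIP1 was 0.48 and 0.55 higher in Hke3 without coculture, and differed by 0.02 and -0.17 with it. Each of these is a difference between single arrays.

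MDM2, the ubiquitin ligase that degrades p53, was measured by 10 probe sets, of which 7 passed the filter, and these 7 differed among themselves. The brightest probe set read 9.89, 9.80, 9.69 and 9.93 log2 over the HCT116 arrays and 9.95, 9.93, 9.70 and 9.91 over those of Hke3, in the order alone, vitamin D3, coculture and both, and no comparison among the colon arrays called it. The second brightest, of the _x_at kind, read 9.81, 9.70, 9.99 and 10.06 over HCT116 and 9.06, 9.15, 8.67 and 8.39 over Hke3. With each probe set tested by itself, the second brightest fell with coculture in Hke3 by 0.58 (limma adjusted p = 0.0212), and its interaction was -0.84 (limma adjusted p = 0.027). A dimmer probe set, with a mean of 5.95 log2, fell there by 0.36 (limma adjusted p = 0.0301). In HCT116 no MDM2 probe set was called with coculture, and the 7 differed by -0.11 to 0.35.

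**Figure D3:**
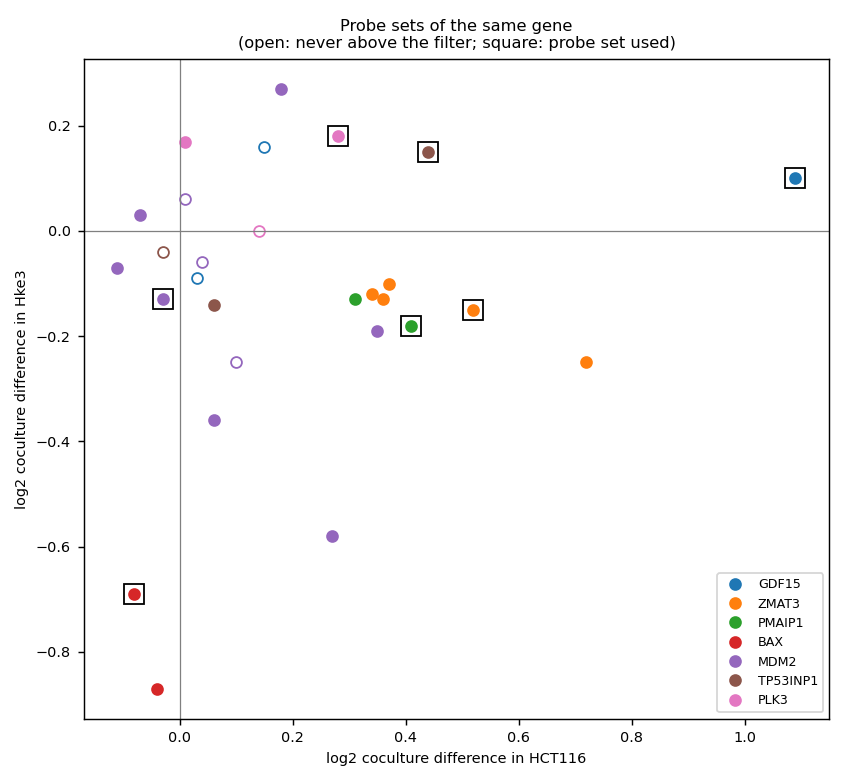
Coculture difference in log2 in HCT116 (horizontal) against Hke3 (vertical) for every probe set of 7 members, with open points for probe sets never above the filter and squares around the probe set used. All 5 ZMAT3 probe sets lie right of 0 and below 0, both BAX probe sets lie low, and those of MDM2 scatter from -0.58 to 0.27 in Hke3.

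Other stress genes moved on the same arrays. Of 21 ATF4 response genes tested, 12 had a coculture by line interaction past the threshold, all with the higher value in HCT116, and none the other way. They make 57.1%, beside 2.34% of all genes in that direction. DDIT3, a transcription factor of the stress response, had -1.67 log2 (limma adjusted p = 0.0022), SESN2, which is a target of both p53 and ATF4, -1.69 (0.00265), CHAC1 -1.59 (0.0022) and TRIB3 -1.55 (0.00305). Coculture raised 11 of the 21 in HCT116 and lowered none, and in Hke3 it raised 1 and lowered 9, among them the serine synthesis gene PHGDH at -1.04 (limma adjusted p = 0.000742). In HCT116 52.4% of the 21 were called higher, beside 7.66% of all genes. In Hke3 42.9% were called lower and 4.76% higher, beside 3.06% and 4.09% of all genes. The median interaction of the ATF4 response genes was -0.652 log2, beside -0.107 for the p53 targets and 0.0157 for all genes. Whether p53 or ATF4 acted on the shared targets was not tested.

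Of 47 further p53 targets tested, 3 had an interaction past the threshold with the higher coculture difference in HCT116, and 1 with that in Hke3. They make 6.38% and 2.13%, beside 2.34% and 1.87% of all genes. TNFRSF10B, the death receptor for TRAIL, measured 11.04 and 11 log2 in HCT116 without coculture and 11.77 and 11.93 with it, and 11.34, 11.25, 11.31 and 11.38 in Hke3. Its interaction was -0.78 ± 0.11 (SE; limma adjusted p = 0.0145). The other 3 were SESN2, the phosphatase PTP4A1 at -0.58 (limma adjusted p = 0.0179) and, with the opposite sign, the chaperone HSPA4L at 0.51 (limma adjusted p = 0.0273). Across both lines, coculture raised 4 of the 47, BTG1, SERTAD1, TNFRSF10D and TGFA, and lowered SAC3D1. Those shares, 8.51% higher and 2.13% lower, stand beside 3.76% and 4.05% of all genes. BTG1, an antiproliferative gene, rose by 0.70 ± 0.11 (SE; limma adjusted p = 0.0145). In HCT116 coculture raised 9 of the 47 and lowered 3, and in Hke3 it raised 4 and lowered 1. The HCT116 shares are 19.1% and 6.38%, beside 7.66% and 8.31% of all genes. The Hke3 shares are 8.51% and 2.13%, beside 4.09% and 3.06%.

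Cell cycle genes that fall when p21 accumulates were lower with coculture in both lines: 17 of 25 across the lines, 18 in HCT116 and 6 in Hke3, and none higher. These are 68%, 72% and 24%, where 4.05%, 8.31% and 3.06% of all genes were called lower. FOXM1, a driver of the mitotic programme, fell by 0.53 ± 0.06 log2 across the lines (SE; limma adjusted p = 0.0134), by 0.61 in HCT116 and by 0.45 in Hke3. Whether p21 acted on these genes was not tested. The interaction was past the threshold for 1 of the 25 (4%, beside 4.21% of all genes), the spindle checkpoint kinase BUB1 at 0.51 (limma adjusted p = 0.031). Of 24 p53 regulators and partners tested, none was called with coculture across the lines. In HCT116 CDKN2A, whose ARF product blocks MDM2, rose by 0.39 (limma adjusted p = 0.0118), and the checkpoint kinase CHEK1 and the chaperone DAXX fell by 0.37 and 0.27. CDKN2A was also the 1 regulator with an interaction, at -0.50 (limma adjusted p = 0.0327). The regulators called make 4.17% for the interaction, near the 4.21% of all genes. In HCT116 they make 4.17% higher and 8.33% lower, beside 7.66% and 8.31% of all genes. MDM4, the MDM2 relative that masks p53, differed by 0.03 with coculture across the lines and was not called. That value averages unlike lines: MDM4 measured 11.05 and 11.095 log2 without and 11.307 and 11.343 with coculture in HCT116. In Hke3 it measured 11.265 and 11.45 without and 11.425 and 10.885 with coculture.

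Markers of macrophages were read on each array. Of 16 macrophage markers 15 were on the array, with a median of 5.28 to 5.43 log2 in the 8 colon arrays and 11.21 and 11.71 in THP1, and 4 to 6 of the 15 above the filter in the colon arrays against 15 in THP1. Their summed linear level was 778.3 to 807.4 without and 761 to 794.8 with coculture in HCT116, and 770 to 784.1 without and 838.7 to 841.4 with coculture in Hke3, beside 58530 and 73740 in THP1. Of the markers, HLA-DRA was called higher with coculture, by 0.46 log2 across the lines (limma adjusted p = 0.0481) and by 0.56 in HCT116 (limma adjusted p = 0.0472). It measured 5.42 and 5.98 in HCT116 without coculture, 6.31 and 6.21 with it, and 11.21 and 8.36 in THP1. SRGN, the brightest marker in THP1, stood at 6.28 in Hke3 with THP1 and vitamin D3 and at 3.94 to 4.90 on the other 7. Of the 6 members with an interaction, GDF15, GADD45A, CDKN1A, ZMAT3 and PMAIP1 were all lower in THP1 than on every colon array. The difference of the actin (ACTB) probe sets at the 3' and 5' ends grows as RNA degrades. In HCT116 it was 0.30 and 0.25 log2 without coculture and 0.16 and 0.23 with it. In Hke3 it was 0.94 and 0.72 without coculture and 0.62 and 0.56 with it. It moved with cell line, and with coculture within Hke3 and, less, within HCT116, and its part in these results was not tested.

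The lines themselves differed in 11 p53 targets, 8 higher and 3 lower in Hke3. That is 29.6% of the members higher and 11.1% lower, where 24.8% of all genes were called higher and 15.7% lower (40.5% in all), so the members' share lies near that of all genes. PLK2 stood apart: it measured 10.54, 10.63, 10.12 and 10.22 log2 in HCT116 and 12.25, 12.43, 12.28 and 12.23 in Hke3. The difference was 1.92 ± 0.08 log2 (SE; 3.79-fold; limma adjusted p = 4.44e-06), and every Hke3 array lay above every HCT116 array. BAX was lower in Hke3 by 0.93 log2 ± 0.12 (SE; adjusted p = 0.00079 with limma), and its second probe set differed by -1.31.

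The other members higher in Hke3 were TP53INP1 (0.54 log2), the actin regulator CYFIP2 (0.42), PLK3 (0.38), the DNA damage sensor DDB2 (0.30), the quinone reductase-like TP53I3 (0.25), SUSD6 (0.23) and the helicase ASCC3 (0.22). The phosphatase PPM1D (-0.34) and the apoptosis inhibitor TRIAP1 (-0.19) were lower. MDM2 was not called by its brightest probe set, at 0.05, while the second brightest gave -1.07 (limma adjusted p = 0.00137). ZMAT3 was likewise not called, at 0.11, while its dimmest probe set gave -0.88 (limma adjusted p = 0.00636). Another TP53INP1 probe set pointed the other way, at -0.27 (limma adjusted p = 0.0178). So did the second probe sets of PPM1D, at 0.13, and of ASCC3, at -0.15. Those of PLK3 and CYFIP2 kept the direction, at 0.43 and 0.12. Of the 24 regulators, 4 were higher in Hke3, among them the kinase PRKDC at 0.67 and TP53BP1 at 0.47, and 6 lower, among them the ligase RCHY1 at -0.66 and CHEK1 at -0.61. The regulators' shares, 16.7% higher and 25% lower, stand beside 24.8% and 15.7% of all genes. Of the 47 further targets 18 were higher and 4 lower, and the cytokine LIF had the smallest p, at 1.05 (limma adjusted p = 7.79e-06). The shares of these targets, 38.3% higher and 8.51% lower, stand beside 24.8% and 15.7% of all genes. As Hke3 is a derived line profiled on arrays of its own, the RAS allele and any other difference of the clone cannot be told apart.

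**Figure D4:**
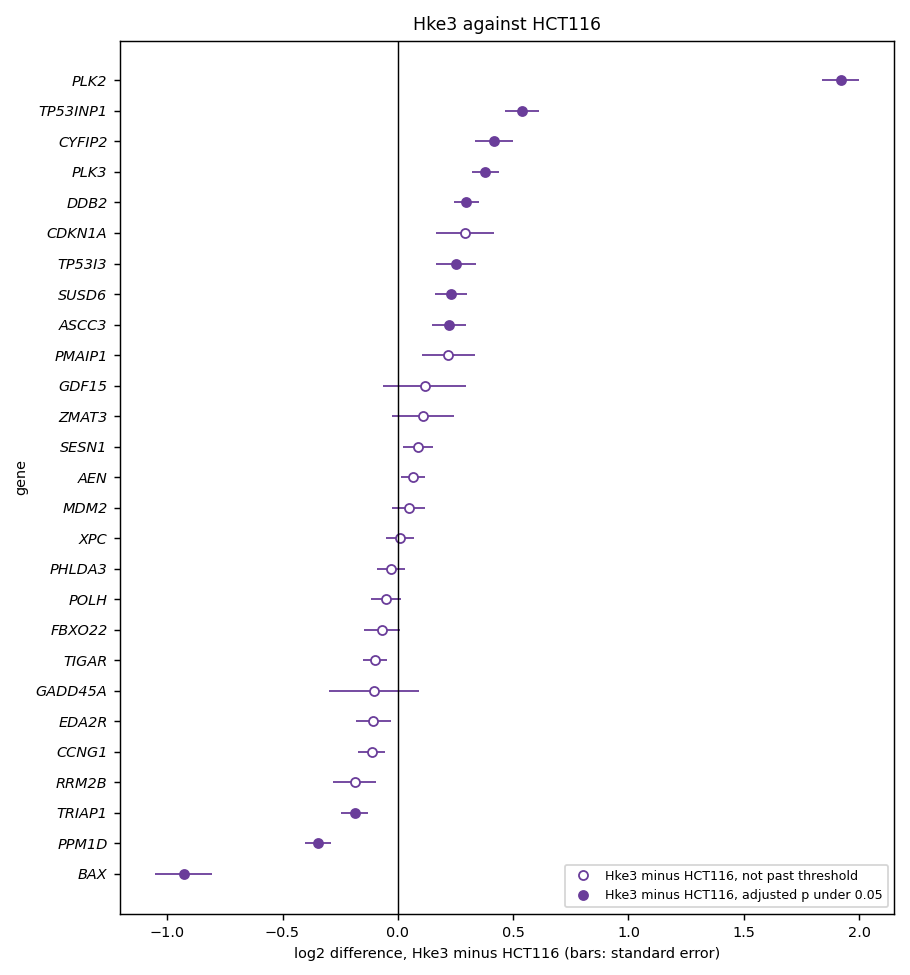
Difference between the lines (Hke3 minus HCT116) in log2 for the 27 tested members, with bars for the standard error and filled points for an adjusted p under 0.05. PLK2 stands at 1.92, the next member at 0.54 and BAX at -0.93.

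THP1 was set against both colon cancer lines as they stood without coculture. Of the 27 members, 20 were lower and 4 higher in THP1, or 74.1% and 14.8%, where 40.2% and 28.1% of all 13879 genes tested were called (68.3% in all). GDF15 and PLK2 are among the 20 but passed the filter only through the colon arrays, where they are bright, and of the 25 members above the filter in THP1, 18 were lower and 4 higher. The median difference was -0.929 log2 over the members and -0.0744 over all genes. After cyclic loess 19 were lower and 5 higher, and the split of all genes went from 3896 higher and 5582 lower to 4591 and 4886. Of the 28 members measured, 20 were lower on both THP1 arrays than on every colon array, cocultured ones included, 4 were higher and 4 overlapped. The same count was not made over all genes, so these counts have no background and show no trait of the members. Line, tissue of origin, medium and p53 status cannot be told apart in this comparison.

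GDF15 measured 5.30 and 5.38 log2 in THP1, under the filter, and 12.03 to 13.17 with a median of 12.68 over the colon arrays. PLK2 measured 6.10 and 6.18 in THP1, no higher than the filter, and 10.12 to 12.43 in the colon arrays. As both are no higher than the filter in THP1, no size is given for their differences. CYFIP2 measured 6.75 and 7.04 in THP1, against 9.60, 9.41, 9.82 and 9.68 in HCT116 and 10.03, 10.09, 10.18 and 9.88 in Hke3 (alone, vitamin D3, coculture and both), and differed by -2.89 ± 0.13 (SE; limma adjusted p = 5.07e-08). TIGAR, which limits glycolysis, measured 7.15 and 7.46 in THP1, against 9.53, 9.57, 9.49 and 9.38 in HCT116 and 9.45, 9.46, 9.32 and 9.33 in Hke3, and differed by -2.20 ± 0.09 (SE; limma adjusted p = 2.78e-08).

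All 5 arrest genes but CCNG1 were lower in THP1. CDKN1A measured 8.02 and 8.40 there against 10.23 to 11.09 in the colon arrays, a difference of -2.37 ± 0.17 log2 (SE; limma adjusted p = 1.26e-06). GADD45A differed by -2.23, measuring 9.10 and 9.58 in THP1, and PLK3 by -1.44. The second PLK3 probe set differed by -0.26. Both feedback genes were lower, MDM2 by 1.37 log2, with 8.51 and 8.54 in THP1, and PPM1D by 1.21. The MDM2 probe sets disagreed here too: of the 7 above the filter, tested singly, 4 were called lower and none higher, with differences from -1.65 to 0.34, and the mean of all MDM2 probe sets gave -0.55. In the cell death group ZMAT3 differed by -2.19, PMAIP1 by -2.13, TP53INP1 by -1.89, AEN by -0.93, PHLDA3 by -0.90, TRIAP1 by -0.84 and TP53I3 by -0.54. The repair genes XPC, DDB2 and RRM2B differed by -0.61, -0.54 and -0.36, and FBXO22, part of a ubiquitin ligase, by -1.21. The call of RRM2B was lost when THP1 was set against Hke3 (-0.26, limma adjusted p = 0.0962), in a fit whose coculture term is shared by both lines. On the arrays without coculture RRM2B measured 9.14 and 8.96 in THP1 and 9.43 and 9.41 in Hke3. Its call was also lost without the THP1 array with vitamin D3 or either Hke3 array that had no coculture. That of TP53I3 was lost without the untreated THP1 array (adjusted p = 0.0755).

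The 4 members higher in THP1 were SUSD6 at 1.04 log2, the translesion polymerase POLH at 0.66, BAX at 0.59 and SESN1, a brake on growth signalling, at 0.30. BAX was higher by 1.05 beside Hke3 (limma adjusted p = 0.000293), while set against HCT116 its difference was 0.12 and was not called (limma adjusted p = 0.528). Both values come from a fit in which the lines share 1 coculture term, though the coculture difference of BAX was not alike in them. On the arrays without coculture BAX measured 9.25 and 9.26 in THP1, 8.999 and 8.967 in HCT116, and 8.24 and 8.48 in Hke3. CCNG1, ASCC3 and EDA2R, a receptor of the TNF family, were not called. Of 48 further p53 targets tested, 33 were lower and 7 higher in THP1, and KITLG, the ligand of the KIT receptor, had the smallest p, at -7.03. The shares, 68.8% lower and 14.6% higher, stand beside 40.2% and 28.1% of all genes. Of the 24 regulators 11 were lower and 5 higher, among them MDM4 at -1.04 (limma adjusted p = 0.000432) and the kinase ATM at 1.29. The regulators' shares, 45.8% lower and 20.8% higher, lie near the 40.2% and 28.1% of all genes. CDKN2A was lower by 3.17. The colon epithelial markers, 12 of 13 on the array, had medians of 11.09 to 11.41 log2 in the colon arrays and 5.43 and 5.32 in THP1, as the labels of the cells say.

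**Figure D5:**
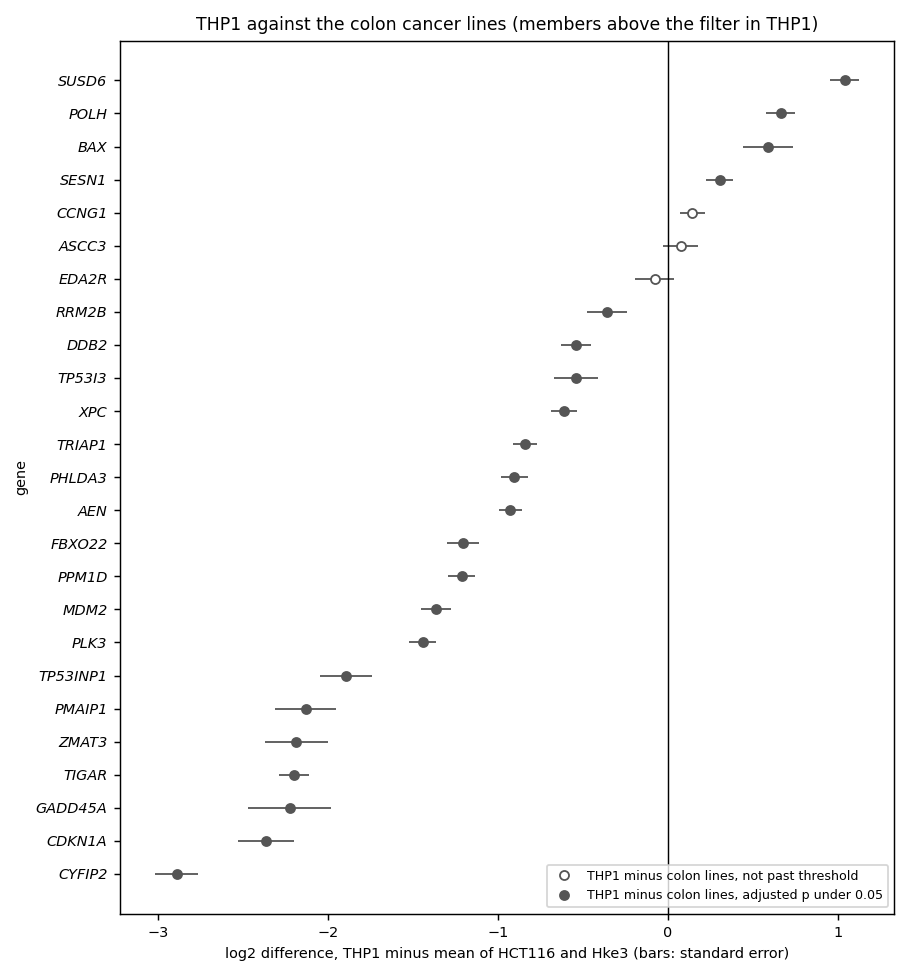
Difference between THP1 and the mean of HCT116 and Hke3 without coculture in log2 for the 25 tested members above the filter in THP1, with bars for the standard error and filled points for an adjusted p under 0.05. The points run from CYFIP2 at -2.89 to SUSD6 at 1.04, and 18 filled points lie left of 0.

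Vitamin D3, the hormone whose receptor is itself a transcription factor, called no p53 target in the colon cancer lines with limma, and no gene at all (0% of 13243, with 375 at an unadjusted p under 0.05). The smallest p-values among the members were those of SESN1 (-0.14 ± 0.06 log2, SE), CYFIP2 (-0.14 ± 0.08) and MDM2 (0.08 ± 0.07), all with a limma adjusted p of 1. SESN1 measured 8.21, 8.19, 8.44 and 8.24 without vitamin D3 and 8.19, 8.02, 8.11 and 8.18 with it, in the order HCT116, HCT116 with THP1, Hke3 and Hke3 with THP1. It was lower in all 4 pairs, by 0.01 to 0.34, and the groups overlapped.

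No member's vitamin D3 difference depended on coculture or on cell line at the threshold, and neither did any other gene's (0% for both, with 652 and 144 genes at an unadjusted p under 0.05 in limma). For coculture the smallest values were those of TP53I3 (-0.35 ± 0.13 log2, SE, limma adjusted p = 0.991), MDM2 (0.28 ± 0.11, adjusted p = 0.991) and EDA2R (-0.23 ± 0.14, adjusted p = 0.995). For cell line they were those of POLH (0.19 ± 0.13), PLK3 (-0.15 ± 0.12) and TRIAP1 (0.14 ± 0.12), with an adjusted p of 1 in limma. In THP1 there is 1 array a condition and no test. TP53INP1 measured 6.53 log2 without and 7.23 with vitamin D3, and PMAIP1 10.49 and 9.82. These were the 2 of 25 members above the filter in THP1 that lay past 1.5-fold, beside 6.59% of 12717 genes, 4.36% higher and 2.23% lower, and neither did so when all probe sets of a gene were averaged. CDKN1A, also a known target of the vitamin D receptor, measured 8.02 and 8.40.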

How the data were processed

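The deposited values are log2 intensities of probe sets, which the authors made by RMA in the R package affy, per the submitters' processing notes. Versions, and whether the 10 arrays were processed together, are not given in the sources used here. Deposited log2 values ran from 2.98 to 15.15, with array medians from 6.15 to 6.21. The 54675 probe sets comprise 41097 with a single gene symbol, which were kept, 1801 with several and 11777 unnamed here. Symbols were updated through Entrez IDs. For each gene the brightest probe set by mean over all arrays was used. The number of arrays limits the precision.

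With limma 3.58.1 (lmFit and eBayes, R 4.3.3), the 8 arrays of the colon lines were modelled by additive terms for line, coculture and vitamin D3, which left 4 degrees of freedom for error. Interactions entered singly (3 degrees of freedom), and coculture within a line is a contrast of the model with the line interaction. THP1 was set against the mean of both lines on all 10 arrays with the same terms (5 degrees of freedom), so its reference is the lines without coculture. P-values were adjusted by Benjamini-Hochberg over all genes tested, at 0.05. Figures were drawn with Python 3.11.15 and matplotlib 3.10.9. The scripts were tested on simulated data.

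The members, the gene lists and the tests were chosen with earlier results of these data known. Every member called in a comparison is named, or the 3 with the smallest p where none was; all array values are given for CDKN1A, MDM2, GDF15, for the 2 further members with the smallest p in coculture, its interaction with line, cell line and THP1, and for ZMAT3 and SESN1, added after their values were seen. Of other lists up to 4 genes a comparison are named by smallest p after MDM4 and TNFRSF10B. FOXM1, DAXX, ATM, CDKN2A, HLA-DRA, KITLG, LIF and PHGDH in single comparisons follow that rule or were named after their values were seen. Alternatives were other filters, probe set rules, scalings, error models, a minimum fold, other terms and leaving out each array.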

Additional observations from a re-analysis of the deposited data

Results flagged for a closer look

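For 6 p53 targets the coculture difference itself differed between the lines by the interaction test (limma, Hke3 minus HCT116, 8 arrays). The values were -1.07 log2 for GADD45A, -0.99 for GDF15, -0.67 for ZMAT3, -0.65 for CDKN1A, -0.61 for BAX and -0.59 for PMAIP1. No condition has enough arrays for a check of single outlying arrays.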

How the results depend on the processing

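No paired analysis was possible because each condition has 1 array and no replicates share a number; the block named below joins arrays of different conditions. Of 1152 repeats of single member results under other settings, 954 kept their direction and side of the threshold, 198 kept the direction and missed the threshold, and 0 turned direction. The total pools all comparisons, and calls in THP1 were kept more often than those for coculture, its interaction and cell line. AEN, for example, kept its THP1 call in 23 of 23 settings and its coculture call across lines in 8 of 20. With each probe set on its own, these repeats followed only the probe set chosen for the gene, so its other probe sets could not count as a turn. The coculture count across lines, 3, became 0 with no filter, 1 with the mean of the probe sets, 1 with each probe set on its own, 0 with a minimum of 1.5-fold, 0 with a block of the other 2 factors, 8 with all two-way interactions together, and 0 whichever array was left out. The cell line count, 11, became 22 with probe sets tested singly and 1 with a minimum of 1.5-fold (PLK2), and 7 to 9 with an array left out. The count for coculture by cell line, 6, became 3 with no filter and 0 with a minimum of 1.5-fold, and 2 to 3 with an array left out. The count in HCT116, 10, became 0 with a minimum of 1.5-fold and 3 to 9 with an array left out. The count in Hke3, 2, became 1 with no filter, 4 with each probe set on its own, 1 with cyclic loess, 0 with a minimum of 1.5-fold and 0 to 1 with an array left out. The THP1 count, 24, became 41 with each probe set on its own, which counts probe sets. The THP1 vitamin D3 count, 2, became 0 with the mean of the probe sets. With the mean of its 3 probe sets, GDF15 had 0.42 log2 in HCT116 and -0.36 for the interaction, both past the threshold, and without _x_at and _s_at probe sets it was not tested. Vitamin D3 and its interactions gave 0 members in every setting run. Beyond fewer arrays, and genes added by leaving out the filter, the cause was not tested. Dim members such as EDA2R and SPATA18 lie near the filter, which limits what their values can show.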
